A study of Nannospalax ehrenbergi and Mus musculus with 25 samples.

Results

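Skeletal muscle of the blind mole rat Spalax was compared between animals that received no carcinogen (Spalax control) and animals that were given 3-methylcholanthrene (3MCA) and had grown no tumor when sampled (Spalax tolerant). The comparison takes in all 8 libraries with these 2 labels, 4 of each, out of 25 libraries in the series. Each library is 1 biopsy of 1 animal. The controls are the females 1042, 1075, 2095 and 6038, labelled healthy, and their neck muscle is labelled as the uninjected side. The tolerant animals, also labelled healthy, each had a single subcutaneous injection of 1 mg 3MCA in 500 µl at the left flank of the neck, and muscle was taken from the injected side. The males 2251 and 2261 were sampled 18 months after the injection, and the male 2218 and the female 2375 after 30 months. No control was injected with the vehicle alone. Injection, labelled side and sex therefore run together: treatment and labelled side cannot be told apart, and 3 of 4 tolerant animals but 0 of 4 controls are males. All animals were caught in the field, and their ages (about 2 years, or 10 years and older) are not assigned to single libraries, so age cannot be checked. The question addressed is whether muscle that met the carcinogen and stayed free of a tumor carries a lasting difference in gene expression.

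3MCA is a polycyclic aromatic hydrocarbon. It binds the aryl hydrocarbon receptor, a transcription factor that switches on enzymes which in turn convert the compound into forms that attach to DNA. Injected under the skin of rodents it gives rise to sarcomas at the site. A muscle biopsy holds more than muscle fibers: capillary endothelium, pericytes and smooth muscle of the vessel wall, fibroblasts, fat cells, nerve and resident macrophages all contribute RNA.

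Depth ranged from 21473077 to 23386729 reads in the controls (22233290 ± 833977, SD, n = 4) and from 18440248 to 20866435 in tolerant muscle (19665538 ± 1151889, SD, n = 4). The controls were the deeper libraries throughout. Values are normalised counts, that is reads divided by 1 size factor per library, and 1 read is worth 0.751 to 1.34 of them. The tissue label held in all 8 libraries: 13 measured genes of the fast sarcomere summed to 1549575 to 2696024 in the controls and to 642424 to 2486700 in tolerant muscle, against 2681 to 8215 in the 4 tumor libraries of the series. Tolerant 2251 stood apart from the rest. It lay above all other 7 libraries in 27.3% of 14020 genes tested and below all of them in 29.0%, while control 2095, the next library in this respect, was highest in 20.6% and lowest in 16.5%. Results that rest on tolerant 2251 are given with and without it. Sex could not be checked against the RNA, since Y-linked genes and Xist were not analysed here.

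Few or no genes separated tolerant from untreated muscle at an adjusted p, depending on the test. Of 14020 genes tested by limma, 0 (0%) reached 0.05 after Benjamini-Hochberg adjustment, and the smallest was 0.218. At an unadjusted p under 0.05, 430 genes were higher (3.07%) and 303 lower (2.16%) in tolerant muscle. In 351 genes (2.50%) every tolerant library was above every control, and in 190 (1.36%) every tolerant library was below. Of these 541 genes, 96 were higher and 50 lower by at least 1 on the log2 scale. The count tests on the recovered reads parted: edgeR called 0 genes (851 at an unadjusted p under 0.05), whereas DESeq2 called 41 genes higher (0.292%) and 19 lower (0.136%). The median gene differed by -0.03 (log2), and by 0.08 when reads were scaled by their total in place of the size factors. Without tolerant 2251, limma called 0 of 14136 genes, with 421 higher (2.98%) and 391 lower (2.77%) at an unadjusted p under 0.05, and DESeq2 called 77 genes, of which 40 were among its 60. The split by direction at an unadjusted p under 0.05 moved with single libraries: leaving out tolerant 2218 gave 522 higher and 575 lower, and leaving out control 1042 gave 332 higher and 198 lower. With edgeR 596 of the 851 were higher, and with sex as a term 517 were higher and 812 lower. Scaling by total reads without tolerant 2251 gave 273 higher and 401 lower.

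In what follows, single values are normalised counts, those of controls stand in the order 1042, 1075, 2095 and 6038, and those of tolerant animals in the order 2218, 2251, 2261 and 2375. A log2 fold change is tolerant minus control of log2(normalised count + 1), with its standard error from limma. None of the genes named passed the adjustment in limma, so higher and lower describe levels.

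The gene of smallest p was LOC103742149, a gene without an assigned symbol. It measured 65.2, 57.5, 81.1 and 49.7 in the controls and 2.64, 8.26, 5.47 and 4.02 in tolerant animals, a log2 fold change of -3.46 ± 0.44 (SE) with an adjusted p of 0.218. The groups were far apart, but all 4 tolerant values are below 10, so the gene passed the filter on low values only through the controls, where it is high. With a filter at 50 in place of 10 the smallest adjusted p of all genes was 0.581. Another gene without a symbol, LOC103743414 (chosen after its values were seen, for its size among the DESeq2 calls), measured 254, 896, 565 and 311 against 7.93, 36.8, 17.5 and 84.4. Its log2 fold change was -4.05 ± 0.67 (SE).

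The 10 genes with a symbol that led those higher in tolerant muscle include 2, Ccnl1 and Pnisr, that act with the splicing machinery. Ccnl1 encodes cyclin L1, a partner of splicing kinases in nuclear speckles. It measured 759, 734, 788 and 732 in the controls and 1501, 1567, 1235 and 2135 in tolerant animals, a log2 fold change of 1.07 ± 0.19 (SE) at an unadjusted p of 0.000279. The controls were nearly level, and the lowest tolerant library was well above them. Pnisr, an arginine- and serine-rich protein that binds the splicing factor pinin, measured 1723, 1697, 1398 and 2272 against 3253, 3079, 4076 and 3922 (log2 fold change 1.03 ± 0.20, SE).

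Spire1, which nucleates actin filaments, had the smallest p of the 10. Its values were 553, 646, 616 and 319 in the controls and 1458, 1959, 1151 and 1560.1 in tolerant animals. The log2 fold change was 1.54 ± 0.26 (SE), at an unadjusted p of 0.000175. Napb, a SNAP protein that helps to take SNARE complexes apart after membrane fusion, measured 698, 516, 519 and 1188 against 1347, 2054, 2637 and 3071 (log2 fold change 1.66 ± 0.33, SE). In this gene control 6038 came near the lowest tolerant library. Ofd1, a protein of centrioles and the ciliary base, had a mean of 830.1 ± 135 in the controls and 1808 ± 441 in tolerant muscle (SD, n = 4 each). C2cd5, which takes part in insulin-driven traffic of the glucose transporter Glut4, showed 880.1, 783, 771 and 1071 against 1453, 1368, 1769 and 1716. The remaining 4 were Ttc14 (log2 fold change 1.03 ± 0.20, SE), the zinc finger gene Znf189 (1.05 ± 0.21, SE), Lrrc71 (1.98 ± 0.41 (SE), at only 7.96 to 17.1 in the controls, so that it passed the filter through the tolerant libraries) and Sycp3 (1.13 ± 0.24, SE), which builds the axis of meiotic chromosomes.

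The 10 genes that led those lower in tolerant muscle include receptors and a pair of genes expressed in vessels. Rgcc, a cell cycle regulator induced by complement and expressed in endothelium, measured 1941, 1968, 2356 and 1907 in the controls and 1075, 863, 1216 and 939.5 in tolerant animals. Its log2 fold change was -1.003 ± 0.176 (SE), at an unadjusted p of 0.000216. Ramp3, the accessory subunit that makes the calcitonin-like receptor respond to adrenomedullin, measured 283, 314, 342 and 298 against 136, 179, 147 and 103 (log2 fold change -1.15 ± 0.23, SE). Every tolerant library held less than the lowest control in both genes.

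Ret, the receptor tyrosine kinase of the GDNF family of nerve growth signals, measured 193, 141, 218 and 243 in the controls and 72.7, 79.6, 98.5 and 55.0 in tolerant animals (log2 fold change -1.37 ± 0.28, SE). P2ry1, an ADP receptor, measured 579.7, 473, 415 and 564 against 227, 104, 304 and 150.1 (log2 fold change -1.47 ± 0.33, SE). Adh1c, a class I alcohol dehydrogenase, measured 504, 684, 1176 and 528 against 148, 104, 426 and 111 (log2 fold change -2.04 ± 0.46, SE). In the last gene tolerant 2261 was close to the lowest control. Glrx5, needed to build iron-sulfur clusters in mitochondria, stood at 462 to 644 in the controls and 131 to 300.01 in tolerant muscle. The others were the receptor phosphatase Ptprd (log2 fold change -1.44 ± 0.32, SE), the channel subunit Cacng4 (-1.96 ± 0.45, SE), the membrane protein Tmem204 (-1.12 ± 0.26, SE) and the homeobox gene En1 (-1.81 ± 0.39, SE). These 20 genes were picked for groups that do not overlap, so none could change direction without tolerant 2251. The log2 fold change of En1 was then -2.17.

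**Figure D1:**
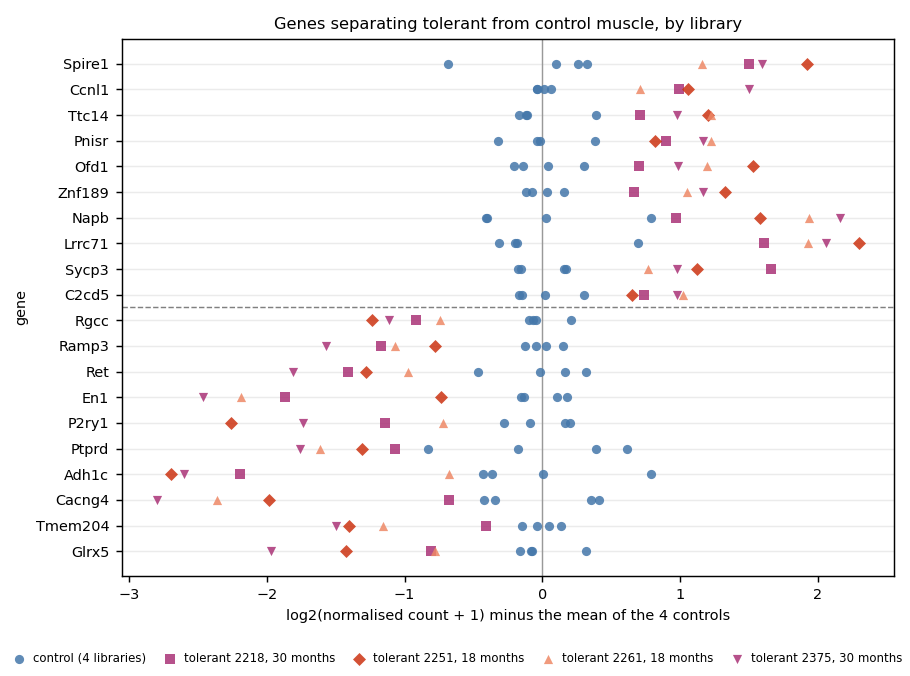
Each row is a gene and each point a library, placed at its log2(normalised count + 1) minus the mean of the 4 controls; the genes are the 10 higher (above the dashed line) and 10 lower with the smallest unadjusted p among named genes without overlap. Control points lie around 0 and tolerant points to one side, with control 6038 nearest to the tolerant range in Napb.

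Genes of splicing and nuclear speckles were gathered into a list of 48 after these values had been seen, so their counts are a description. The list holds speckle proteins, SR proteins and their kinases, and spliceosome parts. Of 46 tested, 16 were higher without overlap and 0 lower, beside 2.50% of all genes. The median log2 fold change was 0.36, beside -0.03 for all genes, and 0.35 without tolerant 2251. At an unadjusted p under 0.05, 19 were higher and 0 lower, beside 3.07% and 2.16% of all genes. Leaving out single libraries gave 13 to 20 higher, and sex as a term 10. The summed level of the list ran from 90503 to 108222 in the controls and from 121065 to 140352 in tolerant muscle, with no overlap. Cyclin L2 (Ccnl2) measured 855, 826, 787 and 832 against 1146, 1739, 1353 and 1636. The U1 small nuclear ribonucleoprotein Snrnp70 measured 1758, 1779.7, 1985 and 2002 against 2953, 3022, 2639 and 3729.97. Pinin itself (Pnn) had a log2 fold change of 0.69 ± 0.16 (SE), Rnpc3 of the minor spliceosome 0.99 ± 0.23 (SE) and Prpf40b 0.57 ± 0.16 (SE). Several core SR genes showed small differences: Srsf2, Srsf3, Srsf7 and Srsf10 had log2 fold changes of 0.06, -0.09, 0.02 and 0.00. Uninjected muscle of the 4 tumor-bearing Spalax, set beside these values without a comparison, held 127695 to 178881 for the summed list. That range, and the 128805 to 148146 of the 4 tumor libraries, lay above every control too. A high sum was thus not particular to tolerant muscle.

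Endothelial genes were the cell type list with the most members at low p. All 18 listed genes were tested, and 9 were lower and 0 higher at an unadjusted p under 0.05, beside 2.16% and 3.07% of all genes. In 5 of them the groups did not overlap, beside 1.36% of all genes that were lower without overlap. DESeq2 called 0 of the 18 genes at an adjusted p of at most 0.05. Their summed level was 26617, 28978, 24100.2 and 26925 in the controls and 16590.4, 20334, 21101 and 19134 in tolerant muscle, so that every tolerant library was below every control. Uninjected muscle of the 4 tumor-bearing Spalax, set beside these values without a comparison, held 18051 to 21456, also below every control. A low sum was thus not particular to tolerant muscle. The median log2 fold change was -0.48, beside -0.03 for all genes, and -0.54 without tolerant 2251, when 8 genes were lower. The number lower was 5 without tolerant 2218, 6 without control 1075, control 2095 or tolerant 2375, and 4 when reads were scaled by their total, with 0 higher each time. In bulk tissue, fewer endothelial cells and less of this RNA per cell cannot be told apart.

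The lower endothelial genes included several of junctions and receptors. Other listed genes of these kinds, namely Cldn5, Flt1, Tek and Robo4, were not at an unadjusted p under 0.05. VE-cadherin (Cdh5), the adhesion protein that joins endothelial cells, measured 2987, 2830.5, 1779 and 2636 in the controls and 1444, 1377, 1825 and 1319 in tolerant animals (log2 fold change -0.76 ± 0.21, SE). Esam, another junction protein, measured 1609.99, 1555, 1507 and 1284 against 661, 925, 1062 and 851 (log2 fold change -0.78 ± 0.19, SE). Its groups were clearly apart, whereas in Cdh5 tolerant 2261 was just above control 2095. Kdr, the main receptor for vascular endothelial growth factor, measured 3129, 2557, 1879.8 and 2666 against 1665, 1063, 1881 and 1196 (log2 fold change -0.83 ± 0.24, SE), and the same pair of libraries met there. Emcn completes the 4 members of smallest p, and those that follow were chosen after their values were seen. The sialomucin Emcn had a log2 fold change of -0.95 ± 0.24 (SE), the receptor Tie1 of -0.70 ± 0.25 (SE) and the adrenomedullin receptor subunit Ramp2 of -0.69 ± 0.25 (SE). The TGF-beta coreceptor Eng differed by -0.65 ± 0.25 (SE), Egfl7 by -0.51 ± 0.20 (SE) and the adhesion protein Pecam1 by -0.48 ± 0.20 (SE). Other members overlapped between the groups: von Willebrand factor (Vwf) stood at 1269 to 2343 and 1449.7 to 2399, and Angpt2 at 139.7 to 216 and 177 to 215. The lymphatic genes Prox1 and Lyve1 had unadjusted p of 0.538 and 0.921.

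**Figure D2:**
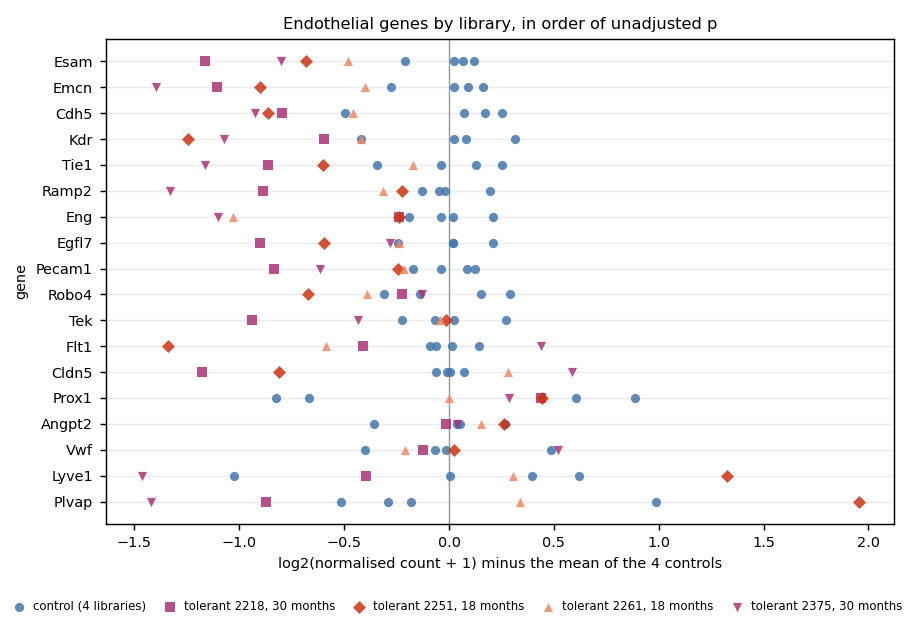
Each row is 1 of 18 endothelial genes, ordered by unadjusted p from the top, and each point is a library at its log2(normalised count + 1) minus the mean of the 4 controls. In the upper rows tolerant points lie left of most controls, and in the lower rows, such as Vwf and Angpt2, they mix.

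Of the other cells of the vessel wall and tissue, 16 smooth muscle and pericyte genes gave 3 lower and 0 higher at an unadjusted p under 0.05. For this and the lists that follow, 2.16% of all genes were lower and 3.07% higher at that p. Smooth muscle actin (Acta2) had a log2 fold change of -0.82 ± 0.29 (SE), smooth muscle myosin (Myh11) of -0.98 ± 0.37 (SE) and the pericyte gene Rgs5 of -0.51 ± 0.21 (SE). In Acta2 tolerant 2218, at 3163, lay inside the control range. The 3 became 1 without control 1075 or tolerant 2261 and 0 with sex as a term. Of 18 adipocyte genes, 2 were lower: the fatty acid binding protein Fabp4 measured 7475, 18697, 12214 and 10634 against 3414, 6103, 9276 and 5519 (log2 fold change -1.02 ± 0.36, SE), and the hormone resistin (Retn) differed by -1.39 ± 0.57 (SE). Their summed level overlapped between the groups, and the number lower ran from 0 without tolerant 2218 to 5 without control 1042. Of 15 nerve and Schwann cell genes, only Prph, an intermediate filament of peripheral neurons, was lower (-1.003 ± 0.370, SE), and 0 were without control 1075 or tolerant 2375. Lists of skin, cartilage and bone, erythroid, neutrophil and lymphocyte genes had 0 members at an unadjusted p under 0.05. Leaving out 1 library gave up to 1 member in the skin, cartilage and bone, and lymphocyte lists, and 3 of 7 neutrophil genes were higher without tolerant 2375.

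Homeobox genes that record position along the body separated the groups in both directions. The list was added after values had been seen and holds all 39 Hox genes of the table, of which 21 were tested. At an unadjusted p under 0.05, 7 were higher and 3 lower, beside 3.07% and 2.16% of all genes. Of the 21, 5 higher and 1 lower did not overlap, beside 2.50% and 1.36% of all genes. Without tolerant 2251 there were 5 higher and 6 lower at that p, beside 2.98% and 2.77% of all genes. Higher genes belonged to the HoxB, HoxC and HoxD clusters and lower genes to HoxA. Hoxd9 measured 17.7, 61.1, 51.1 and 29.8 in the controls and 179, 81.1, 168 and 137 in tolerant animals (log2 fold change 1.88 ± 0.44, SE). Hoxc6 measured 29.8, 42.2, 4.99 and 35.8 against 135, 84.1, 95.3 and 189 (log2 fold change 2.37 ± 0.62, SE). Hoxa5 ran the other way, at 82.8, 73.7, 232 and 408 against 22.5, 18.0, 31.8 and 71.0 (log2 fold change -2.29 ± 0.62, SE).

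Hoxd10 was low in the controls, at 1.25 to 18.0, and stood at 22.5 to 107 in tolerant muscle (log2 fold change 2.85 ± 0.73, SE). Hoxc8 had 0.995 to 19.8 against 17.5 to 142 (log2 fold change 3.35 ± 0.90, SE), with tolerant 2261 just below the highest control. Both genes reached 10 in 1 control only and passed the filter through the tolerant libraries, where they are high. With a filter at 50, 4 Hox genes were higher and 2 lower at an unadjusted p under 0.05. Hoxd4 differed by 1.25 ± 0.29 (SE) and Hoxa4 by -1.58 ± 0.48 (SE). Beside the Hox genes, En1 measured 133, 112, 139.7 and 110.4 against 33.1, 73.6, 26.3 and 21.4, and the homeobox gene Emx2 (also chosen after its values were seen) 45.3, 112, 61.1 and 85.5 against 373, 179, 205 and 164 (log2 fold change 1.58 ± 0.37, SE). Such genes keep their pattern in adult fibroblasts and muscle according to the site on the body. The exact site of each biopsy within the neck is not given.

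**Figure D3:**
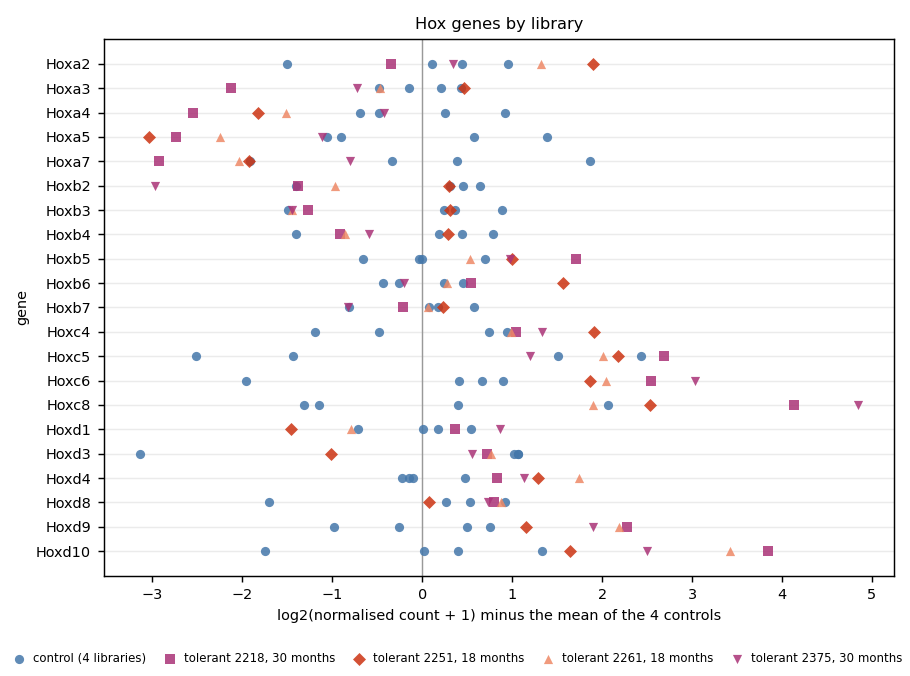
Each row is 1 of 21 tested Hox genes in cluster order, and each point is a library at its log2(normalised count + 1) minus the mean of the 4 controls. Tolerant points lie left of most controls in Hoxa4, Hoxa5 and Hoxa7 and mostly right of them in Hoxc4 to Hoxc8, Hoxd4, Hoxd9 and Hoxd10; several genes are low, so single points spread widely.

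The response to the carcinogen itself was read first from the aryl hydrocarbon receptor and the detoxifying genes. Of 24 listed genes 14 were in the table and 12 were tested. Cyp1a1, Cyp1a2 and Cyp1b1, the standard targets of the receptor, were not analysed here. None passed the adjustment, and at an unadjusted p under 0.05 there was 1 higher gene, Srxn1, which repairs oxidised peroxiredoxins. Srxn1 measured 500.2, 654, 718 and 555 in the controls and 725, 1123, 646 and 1276 in tolerant animals (log2 fold change 0.59 ± 0.25 (SE), unadjusted p 0.0436, and 0.0948 without tolerant 2251), and the groups overlapped.

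The receptor gene Ahr measured 59.6, 63.8, 26.2 and 64.7 against 23.8, 348, 76.6 and 21.4, with tolerant 2251 far above every other library. Its partner Arnt stood at 1696 to 2282 and 2141 to 2561. The receptor's feedback gene Tiparp stood at 714 to 1296 in the controls and 704 to 1525 in tolerant muscle. Nqo1, a quinone reductase under both the receptor and Nrf2, stood at 201 to 299 and 141 to 306. All of these ranges overlap. The Nrf2 gene Nfe2l2 and its targets Gclc, Gclm, Txnrd1 and Hmox1, which make glutathione, recycle thioredoxin and break down heme, had unadjusted p between 0.282 and 0.923, and Lpcat2 had 0.6.

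Of 26 tested p53 target and DNA damage genes 1 was higher at an unadjusted p under 0.05, a share near the 3.07% of all genes. Cdkn1a, the p53 target that halts the cell cycle (p21), measured 60.7, 56.6, 68.6 and 50.7 in the controls and 151, 638, 118 and 131 in tolerant animals. The log2 fold change was 1.73 ± 0.50 (SE) at an unadjusted p of 0.00639, and 1.16 without tolerant 2251. All tolerant libraries were above all controls. Without tolerant 2251, 2 of the 26 p53 target and damage genes had an unadjusted p under 0.05. The others next in order of p overlapped between the groups: the death receptor Fas, Gadd45b and the repair gene Xpc had unadjusted p of 0.107, 0.182 and 0.192.

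Of 42 genes of the Fanconi anemia pathway and homologous recombination, which mend crosslinks and breaks in DNA, Fancb was higher (log2 fold change 0.91 ± 0.34 (SE), unadjusted p 0.0235) and 0 were lower at an unadjusted p under 0.05, beside 3.07% and 2.16% of all genes. Without control 2095, 0 were at that p. The median log2 fold change of the 42 was 0.04, beside -0.03 for all genes. Their summed level was 18068 to 20505 in the controls and 17765 to 25288 in tolerant muscle. Of 23 tested cell cycle genes 0 were at an unadjusted p under 0.05 in either direction, with a median of -0.13, and without tolerant 2251 there were 2 lower, with a median of -0.22. Their sums overlapped, at 2847 to 4217 and 2596 to 4363, where the tumors held 24147 to 55381.

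Muscle fiber genes held few members at low p. Of 13 fast and 16 slow sarcomere genes, 0 and 2 were higher at an unadjusted p under 0.05, and 0 were lower, beside 3.07% and 2.16% of all genes. The slow fiber myosin Myh7b measured 991, 1303, 806 and 1185 against 2508, 1089, 1813 and 2206 (log2 fold change 0.79 ± 0.28, SE), and the Z-disc stretch sensor Csrp3 differed by 1.12 ± 0.44 (SE). Without control 2095 neither list had a member at that p. Of 16 tested genes of developmental myosin and regeneration only 1 was at that p. It was cardiac actin (Actc1), which skeletal muscle makes mainly during development and repair. Actc1 measured 139, 163, 146 and 115 in the controls and 307, 2569, 817 and 177 in tolerant animals (log2 fold change 2.05 ± 0.69 (SE), and 1.34 without tolerant 2251). All tolerant libraries exceeded the controls, by very different amounts. Of 25 citrate cycle, 16 respiratory chain and 29 glycolysis and glycogen genes, 0 were at an unadjusted p under 0.05 in either direction.

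Lists of the clock and of stress had few members at an unadjusted p under 0.05, beside 3.07% of all genes higher and 2.16% lower, and several of their shares are near these. Of 17 clock genes, the activator Arntl was higher (234, 65.6, 163 and 418 against 210.2, 712, 678 and 563, log2 fold change 1.44 ± 0.57, SE) and the output genes Dbp (-1.23 ± 0.49, SE) and Tef (-0.93 ± 0.39, SE) were lower at an unadjusted p under 0.05. Without control 1075, control 2095 or tolerant 2261, 0 clock genes had such a p. The hour of each biopsy is not given. Of 26 immediate early genes, Maff was higher (1.67 ± 0.72, SE) and Ier3 lower (-0.61 ± 0.27, SE), and without tolerant 2261 there were 8 higher and 0 lower. Of 23 hypoxia genes, Epas1, which encodes HIF-2 alpha and is strong in endothelium, measured 6449.9, 7061, 5611 and 6078 against 4531, 3301, 4557 and 4129 (log2 fold change -0.62 ± 0.19, SE) with no overlap. Of 17 complement and acute phase genes, ceruloplasmin (Cp) and Masp2 were higher (1.35 ± 0.44 (SE) and 0.70 ± 0.26, SE). Of 25 innate immune genes, the antiviral Rsad2 was lower (-1.02 ± 0.41, SE). Without tolerant 2251 there were 2 lower innate immune genes, and without control 1075, control 2095 or tolerant 2375 there were 0. Heat shock genes (26 tested), extracellular matrix genes (36) and the 10 matrix genes and partners that the study text sets in a network had 0 members at an unadjusted p under 0.05. Leaving out 1 library gave at most 2 heat shock genes at that p.

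Tolerant 2251 carried a pattern of its own that the group means hide. In this library 22 of 23 tested macrophage genes and 31 of 36 matrix genes were the highest of all 8, beside 27.3% of all genes. In the same library 12 of 13 fast sarcomere, 22 of 25 citrate cycle and 16 of 16 respiratory chain genes were the lowest, beside 29.0%. The animal is a male of the 18 month group with the label healthy. The share of reads in its 10 most abundant genes was 9.12%, against 14.2% to 18.2% in the other 7 libraries.

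The genes in which it lay farthest above the others are known from macrophages and osteoclasts. They were selected for this distance, so their values are a description. Osteopontin (Spp1) measured 23083 in tolerant 2251 and 56.9 to 151 in the other 7 libraries. The matrix protease Mmp9 measured 3808 against 3.74 to 35.0. Cathepsin K (Ctsk), which cuts collagen in osteoclasts, measured 6563 against 69.7 to 297. These are gaps of 153-fold, 109-fold and 22.1-fold over the highest of the others. Gpnmb, a lysosomal membrane protein of lipid-laden macrophages, measured 13050.2 against 277 to 633, and the chemokine receptor Cx3cr1 651 against 1.34 to 27.0. In the 4 tumor libraries, Gpnmb ran from 3722 to 15469.9, Ctsk from 408 to 3665 and Spp1 from 56.2 to 2185.

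Farthest below the others were genes of muscle and membrane. Sarcomeric mitochondrial creatine kinase (Ckmt2) measured 7675 in tolerant 2251 and 31995 to 90028 in the other 7. The potassium channel Kcnj3 measured 29.3 against 137 to 407, and the myosin light chain Myl10 5.25 against 64.6 to 137. Gpr110 and Gpr20, a pair of G protein-coupled receptors, stood at 10.5 and 1.50, below 58.4 to 169 and 11.2 to 85.8.

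Summed over the lists, macrophage genes stood at 121669 in tolerant 2251, 4202 to 23786 in the other 7 libraries and 39346 to 156598 in the tumors. Matrix genes stood at 431343, 23969 to 104474 and 414428 to 3006660. For both lists this muscle was thus inside the range of the tumor libraries. Summed cell cycle genes were not: they stood at 4123, within 2596 to 4363 of the others and below the 24147 to 55381 of the tumors. Most cell cycle genes did stand higher in this library, with 16 of 23 at their highest there, beside 27.3% of all genes. The median of the list relative to the mean of the controls was 1.11 (log2) there. It was -0.29 to 0.13 in the other 7 libraries and 3.89 to 5.67 in the tumors. Prc1, which bundles microtubules in dividing cells, measured 108 against 23.9 to 58.4. Fast sarcomere genes, at 642424, were below the other muscle libraries and far above the tumors. These values move together in 1 biopsy, and the part of its cell makeup in its single genes was not tested.

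Leaving out tolerant 2251 turned the median of several lists. The median log2 fold change of matrix genes went from 0.27 to -0.52, of macrophage genes from 0.34 to -0.56, and of complement genes from 0.32 to -0.36. The median of fast sarcomere genes went from -0.54 to -0.11 and that of respiratory chain genes from -0.48 to -0.10. The endothelial and splicing medians given above did not turn. In the remaining 3 tolerant animals no matrix or macrophage gene was higher at an unadjusted p under 0.05, and 1 matrix gene, the basement membrane collagen Col4a1, was lower (-0.71, chosen after its value was seen). With sex as a term, which sets the controls against tolerant 2375 alone, the median was -1.45 for matrix genes and -1.82 for macrophage genes. These medians are the values of that 1 library, given again below. Without tolerant 2375, 4 matrix genes were higher at an unadjusted p under 0.05, beside 491 of all 14275 genes. By edgeR, which weighs libraries on the count scale, the median over all 8 libraries was 1.14 for matrix and 1.17 for macrophage genes.

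**Figure D4:**
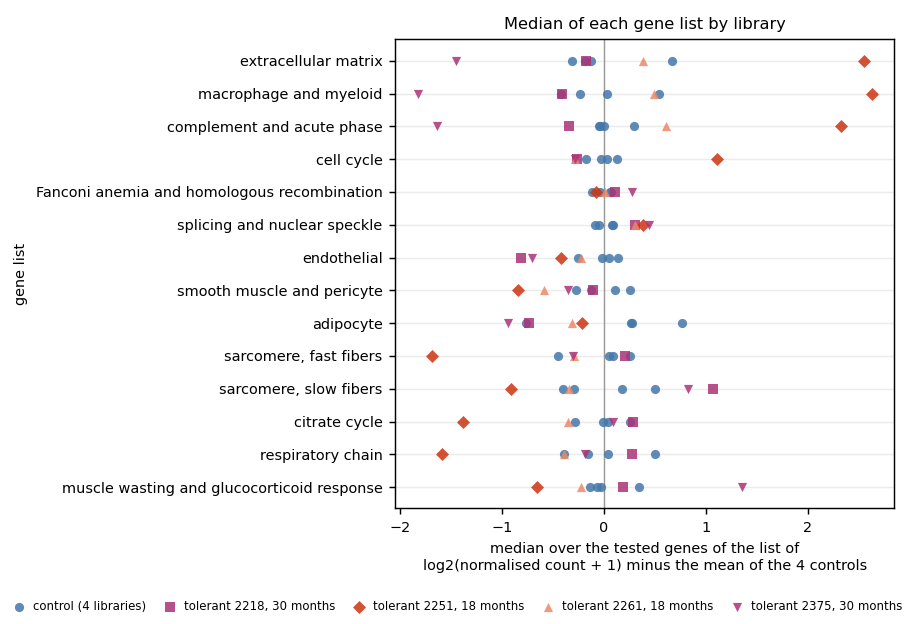
Each row is a gene list and each point a library, placed at the median over the tested genes of log2(normalised count + 1) minus the mean of the 4 controls. Tolerant 2251 (diamond) lies far right for matrix, macrophage and complement genes and far left for fast sarcomere, citrate cycle and respiratory chain genes, while all 4 tolerant libraries sit right of the controls for splicing genes.

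Tolerant 2375, the female of the group, stood apart in another set of genes. Muscle wasting and glucocorticoid response genes include the ubiquitin ligases that mark muscle protein for breakdown and the Foxo factors that drive them. Of 23 tested, 1 was higher (Cdkn1a, given above) and 0 lower at an unadjusted p under 0.05 between the groups. The single genes that follow were chosen after their values were seen. The ligase MuRF1 (Trim63) measured 4806, 3115, 5346 and 3954 in the controls and 7495, 2724, 3582 and 55174 in tolerant animals. Atrogin-1 (Fbxo32) measured 3115, 3101, 2809 and 4822 against 3206, 1795, 2948 and 24693. Pdk4, the kinase that shuts off pyruvate dehydrogenase in fasting, measured 1392, 5062, 3358 and 805 against 1741, 1325, 1996 and 144201.

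In all 3 genes tolerant 2375 was far above the other 7 libraries, which overlapped. Myostatin (Mstn), which restrains muscle growth, measured 737, 1157, 1864 and 2699 against 1661, 317, 779.6 and 405 and was low in tolerant 2251 and tolerant 2375. The median of the 23 genes relative to the mean of the controls was 1.35 in tolerant 2375, and the median log2 fold change between the groups turned from 0.27 to -0.23 without it. In the same library the medians of matrix and macrophage genes were the lowest of the 8, at -1.45 and -1.82. A muscle biopsy from the uninjected side of the granuloma-bearing animal 976 had like values in these lists. Its medians were 2.40 for the wasting genes, -1.42 for matrix genes and -1.54 for macrophage genes. In other lists animal 976 and tolerant 2375 differed: neutrophil genes had medians of 2.89 and -1.58, fast sarcomere genes -1.47 and -0.30, and respiratory chain genes -1.24 and -0.19. The other 3 uninjected-side libraries had wasting medians of -0.16 to 0.10.

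Among tolerant animals, muscle taken 30 months after the injection was set against muscle taken after 18 months, 2 animals each, with the controls lending their spread. Of 14020 genes 0 had an adjusted p of at most 0.05 (smallest 0.129), while 1416 were higher (10.1%) and 1722 lower (12.3%) at 30 months at an unadjusted p under 0.05. Immune and matrix genes were lower at 30 months: 21 of 23 macrophage genes and 29 of 36 matrix genes had an unadjusted p under 0.05. Slow fiber and citrate cycle genes were higher, 12 of 16 and 17 of 25. Since 1 of the 2 animals at 18 months is tolerant 2251, these counts rest largely on that library: without it 1043 genes had an unadjusted p under 0.05, with 13 macrophage and 13 matrix genes lower and 6 slow fiber and 2 citrate cycle genes higher. Adjusted calls depended on the animal left out: there were 1546 without tolerant 2261, 89 without tolerant 2218, 1 without tolerant 2375 or control 2095 and 0 without tolerant 2251. DESeq2 called 1523 genes, 416 of them higher, and edgeR called 0 (3105 at an unadjusted p under 0.05). When reads were scaled by their total, 258 genes were higher and 3280 lower at that p and the median gene differed by -0.48, and 9 slow fiber and 11 citrate cycle genes were then higher. The months cannot be told apart from the animals with so few.

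The 10 genes of smallest p were picked on 2 animals against 2. Agreement between the animals of a time follows from that choice, so their values are a description. Pglyrp1, which binds bacterial cell wall, measured 13.2 and 5.36 at 30 months (2218 and 2375) and 238 and 165 at 18 months (2251 and 2261), with 12.9 to 28.7 in the controls. The log2 difference was -4.39 ± 0.62 (SE), with an adjusted p of 0.129. Caspase 1 (Casp1), which activates interleukin 1 beta, measured 26.4 and 21.4 against 167 and 128, with 60.7 to 80.9 in the controls. Dlk1, a Notch ligand homolog of immature fat and muscle cells, measured 18.5 and 18.8 against 807 and 263, with 28.7 to 142 in the controls. In Casp1 and Dlk1 the controls lay between the 2 times. Wisp2 and Steap4 were also lower at 30 months, by log2 differences of -3.24 ± 0.50 (SE) and -2.93 ± 0.48 (SE).

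Higher at 30 months was Ciart, a repressor in the circadian clock, at 1476 and 684 against 40.5 and 96.4, with 59.6 to 164 in the controls (log2 difference 3.98 ± 0.59 (SE), adjusted p 0.129). Both animals at 30 months were far above all controls. Of 17 clock genes 8 were higher at 30 months at an unadjusted p under 0.05, beside 10.1% of all genes. Fewer were without tolerant 2251 or tolerant 2375, but 1 animal then stands for a time. The molybdenum cofactor enzyme Mocos measured 2495 and 1600.3 against 397 and 101, with 925 to 1879 in the controls, which here were nearer to the 30 month animals. Monoamine oxidase B (Maob) differed by 2.06 ± 0.36 (SE), the nonmuscle myosin Myh14 by 1.43 ± 0.25 (SE) and Abi3 by 2.37 ± 0.41 (SE).

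**Figure D5:**
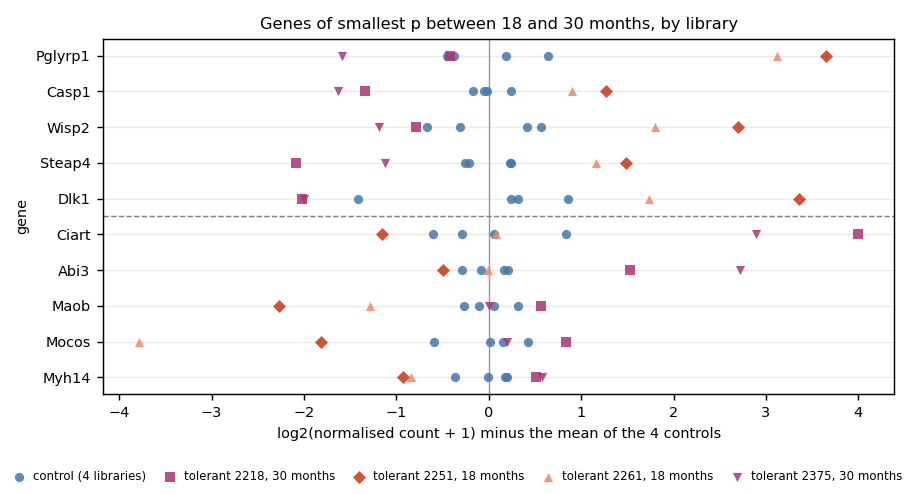
Each row is a gene and each point a library at its log2(normalised count + 1) minus the mean of the 4 controls; the 5 upper genes were lower and the 5 lower genes higher at 30 than at 18 months. The controls lie between the 2 times in Casp1 and Dlk1 and beside the 30 month animals in Mocos and Maob.

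The study chose 68 genes on the difference between these same controls and the uninjected side of tumor-bearing Spalax, so their direction here is not independent evidence. Of these, 63 were tested, and 12 were higher and 9 lower in tolerant muscle at an unadjusted p under 0.05, beside 3.07% and 2.16% of all genes. Rgcc, Ccnl1 and Napb are among them, as are Acta2, Myh11, Prph, Cp, Masp2 and Pnn of the lists above. The direction of these genes in those lists is not independent evidence either. Kiaa0196, a subunit of the WASH complex that shapes endosomes, measured 823, 755, 621 and 819 in the controls and 1173, 1209, 1342 and 1497 in tolerant animals (log2 fold change 0.79 ± 0.17, SE). The same gene measured 1599, 2592, 1372 and 1521 on the uninjected side of the tumor-bearing animals 600, 976, 2230 and 2240, and Ccnl1 measured 1269, 5629.6, 1442 and 1793 there.

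Among 18 tested genes that the study text names, Cdkn1a was higher and the somatostatin receptor Sstr4 lower at an unadjusted p under 0.05. The study names both for these directions in its susceptible samples against the same Spalax controls. Their direction here is therefore not independent evidence. Sstr4 measured 32.0, 75.5, 86.1 and 83.6 in the controls and 23.8, 48.0, 32.8 and 8.04 in tolerant animals (log2 fold change -1.41 ± 0.56, SE), and control 1042 lay inside the tolerant range. The stress regulator Ddit4 spread widely within the tolerant group, at 2354, 830.3, 651 and 6701 against 958, 1056, 1395 and 469.5, with both 30 month animals above the controls. Foxo1, which drives muscle protein breakdown, was high in tolerant 2375 alone, at 638 against 81.1 to 151 in the controls. The interferon and Toll-like receptor genes Tlr4, Ifngr1 and Ifnar2 were highest in tolerant 2251, at 587, 1364 and 1534, and overlapped between the groups otherwise. The kinase Jak3 stood at 87.3 to 165 and 106 to 601. Nme2, Nme3, Serpina6, Creb3l1, Emilin2, Bmp7, Irf1 and Mtor had unadjusted p between 0.457 and 0.918.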

How the data were processed

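Total RNA of Spalax muscle was sequenced from strand-specific single-end libraries. The authors trimmed reads with Trimmomatic, aligned them with TopHat (1.4.1 in the submitters' processing notes), counted them per gene with HTSeq and divided them by DESeq size factors. The strand setting of the counting and the TopHat options are not given in the sources used here. The deposited table holds this signal, a normalised count, for 27988 genes, 12355 of them with provisional LOC names. Each value was a whole multiple of 1 read's worth (tolerance 0.001 read), so reads were recovered for edgeR and DESeq2.

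The main test was limma (3.58.1, R 4.3.3), with trend, on log2(value + 1), for 14020 genes with a value of at least 10 in at least 4 of the 8 libraries and calls at 0.05 after Benjamini-Hochberg adjustment. edgeR (4.0.16, quasi-likelihood) and DESeq2 (1.42.0) were alternatives, and DESeq2 gave no adjusted p to 672 genes. The code was tested on simulated data. Figures used Python 3.11.15 and matplotlib 3.10.9. Replicates are separate animals. No 2 libraries were copies (chi-square over genes of at least 62.2 per degree of freedom in replicate pairs).

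The genes named are those called by limma or by both count tests, the 10 higher and 10 lower of smallest p without overlap, up to 4 of each list by p and all aryl hydrocarbon receptor genes but those left out, the 5 highest and 5 lowest in tolerant 2251, the 5 and 5 of smallest p between months, leading genes of any leave-one-out fit of tolerant against control with calls (0 such fits), and genes named in the study text. Provisional names stayed out of the ranked parts. Genes outside this rule are marked as chosen after their values were seen. The splicing and Hox lists were added after values had been seen, and so were the genes named from them alone. The comparison and the gene lists were chosen with earlier results of these data known. A few genes of the lists are not reported here.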

Additional observations from a re-analysis of the deposited data

Results flagged for a closer look

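In 9 of 174 groups of 4 libraries examined, 1 library lay far from the other 3 of its group for a named gene. Its gap to the nearest of the others, divided by the range of the group, was above the 95% critical value of Dixon, which chance exceeds in about 1 in 20 groups. A total of 9 in 174 is near that share. Of the 9, 3 were in tolerant 2251, and of these Spp1 and Kcnj3 had been named for their distance in that library, so their values are a description. Osteopontin (Spp1) measured 23083 in tolerant 2251 and 56.9 to 151 in the other tolerant libraries. The p53 target Cdkn1a measured 638 there against 118 to 151, and the potassium channel Kcnj3 29.3 against 137 to 172. Smooth muscle actin (Acta2) measured 3163 in tolerant 2218 against 1474 to 1669.98.

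The other 5 were control libraries. Rgcc measured 2356 in control 2095 against 1907 to 1968 in the other controls, and Ttc14 measured 1085 in control 6038 against 736 to 765. The somatostatin receptor Sstr4 measured 32.0 in control 1042 against 75.5 to 86.1. Hoxd4 measured 96.2 in control 1075 against 58.7 to 63.6, and Lrrc71 measured 17.1 there against 7.96 to 8.83.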

How the results depend on the processing

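Each comparison was repeated under 19 alternatives, and that of tolerant with control muscle under 3 more chosen after seeing the data (edgeR, DESeq2 and scaling by total reads, each without tolerant 2251). Of tolerant against control, 0 genes passed the adjusted p in limma, but 2 did with no filter on low values, 1 with sample weights, 1 with all 12 muscle libraries in the fit, 60 by DESeq2 and 77 by DESeq2 without tolerant 2251. Leaving out each library in turn gave 0 each time. Genes at an unadjusted p under 0.05 numbered 733, 1155 with sample weights, 1329 with sex as a term, and 530 to 1097 with 1 library left out. Between 30 and 18 months, calls went from 0 to 1523 by DESeq2, 1 with sex as a term, and 0 to 1546 with 1 library left out. The cause was not tested. The 77 log2 fold changes followed for single genes were recomputed under the alternatives, and 0 changed direction, with 87 gaining an adjusted p of at most 0.05 among 1656 gene and setting pairs. Many of these genes were chosen on these same values for a small p or no overlap. A gene without overlap cannot change direction when 1 library is left out, so the 0 is a description. No paired analysis was possible because control and tolerant samples are different animals that share no number.

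With 4 animals a group, small differences are not detectable, and a value of 10 rests on 7.46 to 13.3 reads. Intervals are not given for single libraries, whose reads carry no molecular identifiers. Treatment, labelled side and mostly sex cannot be told apart, and ages are not known per library.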
